A study of Komagataella pastoris with 6 samples.

Results

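The comparison set *X33*-YPA against *GS115*-YPAH5x, which are 4 of the 6 RNA-seq libraries of the series, 2 of each group, with every gene of the count table. *X33* carries an intact *HIS4* gene and is a histidine prototroph, and it was cultured for 24 h in YPA, a rich medium of yeast extract and peptone with acetate as the carbon source. *GS115* carries a defective *his4* and is a histidine auxotroph, and it was cultured for 24 h in YPA with 650 µM added histidine, a medium named YPAH5x. The remaining 2 libraries are of *GS115* in YPA with no added histidine, and their levels are given beside the comparison. They were also part of the single fit of all 6 libraries, so they helped to set its scaling, filter and estimate of spread. All cultures shared the medium base, the time and the kits, with ribosomal RNA depleted by a kit made for bacteria. The 2 groups differ in strain and in the histidine added to the medium at the same time, so these cannot be told apart here. Each strain is a single line, and the labels describe both strains as wild type beside the genotype *HIS4* or *his4*. The sources used here do not say whether the 2 libraries of a group came from separate cultures, so the p-values measure the spread between these libraries, which may be technical. The question put to the data was which transcripts differ between cells able to make histidine and auxotrophic cells given added histidine. Neither the synthesis nor the import of histidine was measured.

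*Komagataella phaffii*, also known as *Pichia pastoris*, is a yeast that grows on methanol as well as on acetate, glycerol and glucose. Histidine is made from phosphoribosyl pyrophosphate and ATP by a chain of enzymes, in which *HIS1* encodes the entry enzyme and *HIS4* encodes a protein that carries several activities, including the histidinol dehydrogenase of the last step. The same chain releases AICAR, an intermediate of purine synthesis. An auxotroph has to take histidine from the medium through amino acid permeases of the plasma membrane, and yeast cells also hold basic amino acids, histidine among them, in the vacuole through a further set of transporters. Growth on acetate relies on its uptake, on acetyl-CoA synthetase, on the glyoxylate cycle and on gluconeogenesis, with respiration and ATP synthase as the source of ATP.

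The 4 libraries held between 32194047 and 43447246 counted reads, and between 5426 and 5427 of the 5427 genes had reads in each. The duplicates of each group differed by more than sampling noise. Chi-square divided by its degrees of freedom was 69.8 in *X33*-YPA, 40.9 in *GS115*-YPAH5x and 141 in *GS115*-YPA. In a principal component analysis *GS115*-YPA stood apart along the first component (72.8% of the variance), and the compared groups stood apart along the second (21.3%). The 10 genes with most reads took between 21.4% and 23.1% of the reads in the 4 libraries. The share of reads in genes that are not protein coding was 1.10% and 1.18% for *X33*-YPA, against 0.731% and 0.727% for *GS115*-YPAH5x, and the part of this difference in the results below was not tested. Levels are given as counts per 1000000 (CPM) after TMM scaling, in the order of libraries 1 and 2 of a group.

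*X33*-YPA and *GS115*-YPAH5x differed mostly by small amounts. edgeR's quasi-likelihood test was run in 1 fit of all 6 libraries, and genes passed at a Benjamini-Hochberg adjusted p under 0.05. Of the 5426 genes tested, 1075 were higher in *X33*-YPA (19.8%) and 1172 were lower (21.6%). The fit of the 4 libraries alone gave 1363 higher and 1403 lower. Requiring a log2 fold change of 1 or more in size, 157 genes were higher (2.89%) and 391 were lower (7.21%). With a log2 fold change of at least 2, the condition of the study's methods, 2 genes were higher (0.0369%) and 40 were lower (0.737%). The median absolute log2 fold change was 0.39 over all genes and 0.73 over the genes that passed the test. The libraries of the 2 groups did not overlap for any gene that passed. Over all 5426 genes tested they did not overlap with *X33*-YPA above in 2196 and with *X33*-YPA below in 2033, so a lack of overlap is common here. The balance of higher and lower genes moved with the scaling. The TMM factors were 1.11 and 1.05 for *X33*-YPA against 0.90 and 0.89 for *GS115*-YPAH5x. Scaling by library totals alone moved the median log2 fold change of all genes from 0.03 to 0.29 and gave 2040 higher and 671 lower genes, and upper quartile scaling moved it to 0.15 and gave 1482 and 937. All fold changes below are therefore relative to the TMM scaling. Counts of list members below stand against the shares of all genes, 19.8% higher and 21.6% lower. The count of higher genes fell to 323 without *GS115*-YPAH5x library 2, 478 without *X33*-YPA library 2, 548 without *GS115*-YPAH5x library 1 and 690 without *X33*-YPA library 1, where the lone library of the group is assumed to vary like the others. The count of lower genes fell to 611 without *GS115*-YPAH5x library 2 and to 671 without *X33*-YPA library 2.

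**Figure D1:**
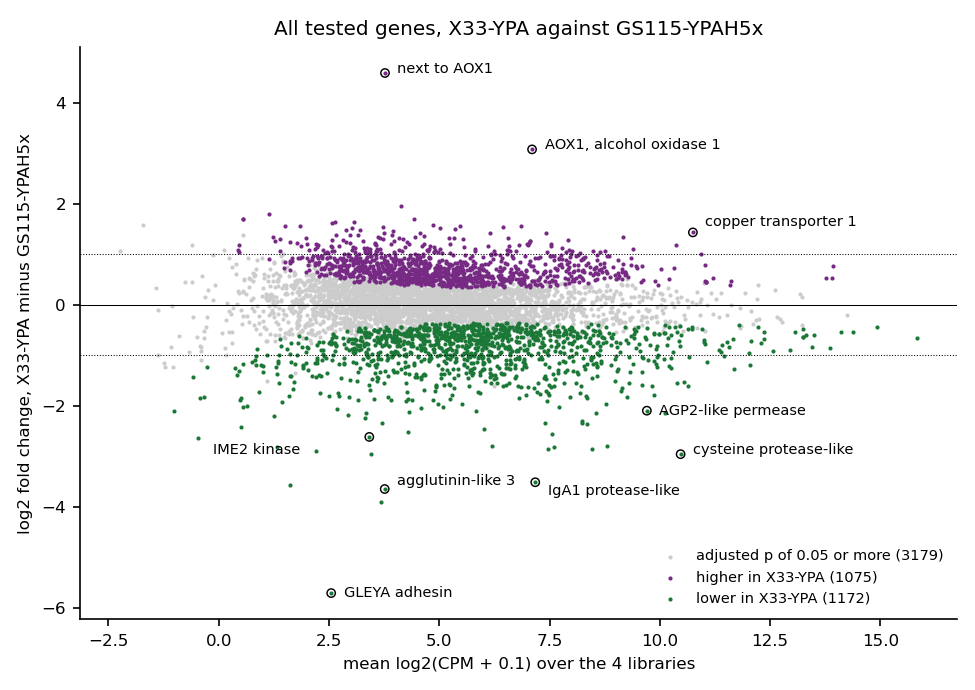
Each point is 1 of the 5426 genes tested, with its mean log2(CPM + 0.1) over the 4 libraries on the x axis and its log2 fold change of *X33*-YPA minus *GS115*-YPAH5x on the y axis. Purple and green points passed an adjusted p of 0.05 as higher and lower in *X33*-YPA, the dotted lines mark a log2 fold change of 1 in each direction, and beyond 2 there are 2 points on the higher side and 40 on the lower side.

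Transcripts of the histidine pathway had log2 fold changes between -0.61 and 0.38. Of 7 genes annotated to histidine biosynthesis, 1 was higher in *X33*-YPA (14.3%, against 19.8% of all genes) and 1 was lower (14.3%, against 21.6%). The other 5 did not pass, as was so for 3179 of all 5426 genes. With 7 genes these shares cannot be told from those of all genes. The median log2 fold change was -0.23 beside 0.03 over all genes. *HIS4* (BQ9382_C1-4895) was measured at 187 and 219.7 CPM in the *X33*-YPA libraries against 207 and 181 CPM in *GS115*-YPAH5x. The libraries overlapped, and the log2 fold change was 0.06 ± 0.18 (SE) with a 95% interval of -0.34 to 0.47 (adjusted p = 0.79). Reads of an intact and of a defective *HIS4* allele are counted alike, so this level does not check the strain labels. In *GS115*-YPA the same gene was at 365 and 501 CPM, above both groups. *HIS1* (BQ9382_C1-5345), the entry enzyme ATP phosphoribosyltransferase, was measured at 36.7 and 39.1 CPM in the *X33*-YPA libraries against 31.00 and 27.3 CPM in *GS115*-YPAH5x. It was higher in *X33*-YPA by 0.38 ± 0.14 (SE) on the log2 scale (adjusted p = 0.047), and this call was lost with DESeq2 (adjusted p = 0.053), with RLE scaling (0.0542) and without any 1 of the 4 libraries (0.101 to 0.35). BQ9382_C3-2175, imidazoleglycerol-phosphate dehydratase, was measured at 246 and 340.3 CPM in the *X33*-YPA libraries against 394 and 498 CPM in *GS115*-YPAH5x. It was lower in *X33*-YPA, at -0.61 ± 0.19 on the log2 scale (SE, adjusted p = 0.031), and this call was lost with upper quartile scaling (adjusted p = 0.0585), library totals (0.114), without *X33*-YPA library 1 (0.206) and without *GS115*-YPAH5x library 2 (0.247).

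The other 4 genes of the pathway lay between these. The log2 fold change was -0.43 ± 0.17 (SE) for BQ9382_C1-3685, histidinol phosphatase, -0.27 ± 0.13 for BQ9382_C4-3425, an isomerase of the middle of the pathway, -0.23 ± 0.14 for *HIS7* (BQ9382_C4-1380), the synthase that releases AICAR, and -0.04 ± 0.13 for BQ9382_C2-3235, histidinol-phosphate aminotransferase. None of these passed the test in the main fit. With DESeq2, and with the fit of the 4 libraries alone, 2 genes of the pathway were lower in place of 1. The *GS115*-YPA levels of the other 4 genes were not uniform. *HIS7* was at 139 and 152 CPM there and the aminotransferase at 172 and 181 CPM, against 30.3 and 29.1 CPM of the aminotransferase in *GS115*-YPAH5x, whereas histidinol phosphatase was at 126 and 125 CPM in *GS115*-YPA and 140.0 and 137 CPM in *GS115*-YPAH5x.

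Amino acid permeases were more often lower than higher in *X33*-YPA. Of 26 genes annotated as amino acid permeases or vacuolar amino acid transporters, 11 were lower (42.3%, against 21.6% of all genes) and 4 were higher (15.4%, against 19.8%), and the median log2 fold change was -0.29. The largest difference was that of BQ9382_C3-1840, annotated as general amino acid permease *AGP2* and as a high-affinity polyamine permease, which was measured at 423 and 385 CPM in the *X33*-YPA libraries against 1791 and 1667 CPM in *GS115*-YPAH5x. Both *GS115*-YPAH5x libraries were far above the *X33*-YPA libraries, and the log2 fold change was -2.10 ± 0.21 (SE, adjusted p = 2.2e-04). The *GS115*-YPA libraries, at 249 and 393 CPM, lay near those of *X33*-YPA. BQ9382_C1-3400, annotated as a lysine permease and an arginine permease of the plasma membrane, was measured at 250.4 and 221 CPM in the *X33*-YPA libraries against 667 and 583 CPM in *GS115*-YPAH5x, a log2 fold change of -1.40 ± 0.18 (adjusted p = 5.6e-04). BQ9382_C4-4745, a low-affinity methionine permease, was measured at 34.7 and 33.7 CPM in the *X33*-YPA libraries against 84.97 and 89.4 CPM in *GS115*-YPAH5x, a log2 fold change of -1.35 ± 0.18 (adjusted p = 6.6e-04). For both of these the groups did not overlap, which was common over all genes. Smaller differences in the same direction were found for both dicarboxylic amino acid permeases (BQ9382_C4-3750, -0.89, and BQ9382_C3-5535, -0.72), for *TAT2* (BQ9382_C1-6695, -0.83), a permease of tryptophan and tyrosine, for a proline permease (BQ9382_C2-6320, -0.65) and for a basic amino acid permease (BQ9382_C1-8205, -0.56). Of these, BQ9382_C3-5535, BQ9382_C2-6320 and BQ9382_C1-8205 lost the call under some alternatives, with adjusted p between 0.051 and 0.174. The 4 higher permeases were 1 without *X33*-YPA library 2 or *GS115*-YPAH5x library 2.

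Transporters of the vacuole went in both directions. BQ9382_C2-1995, an exporter of large neutral amino acids, was measured at 224 and 211 CPM in the *X33*-YPA libraries against 494 and 485 CPM in *GS115*-YPAH5x, and BQ9382_C4-2300, a permease of basic amino acids in the vacuolar membrane, at 12.1 and 10.3 CPM in the *X33*-YPA libraries against 25.7 and 23.9 CPM in *GS115*-YPAH5x. Their log2 fold changes were -1.17 ± 0.15 (SE, adjusted p = 5.7e-04) and -1.15 ± 0.16 (adjusted p = 7.2e-04), and BQ9382_C3-3155, also annotated as a vacuolar transporter of basic amino acids, had -1.13 ± 0.17 (adjusted p = 0.001). In the other direction, vacuolar amino acid transporter 1 (BQ9382_C3-5260) was higher in *X33*-YPA, at 31.4 and 35.8 CPM in the *X33*-YPA libraries against 19.9 and 19.8 CPM in *GS115*-YPAH5x with a log2 fold change of 0.76 ± 0.13 (adjusted p = 0.0024). An exporter of aspartate and glutamate (BQ9382_C2-1110, 0.77), a proline permease (BQ9382_C2-3380, 0.63) and a low-affinity methionine permease (BQ9382_C1-2770, 0.52) were also higher, but each lost the call when some single library was left out (adjusted p between 0.0512 and 0.144). *TAT2*, lower as given above, is also annotated as a general amino acid permease, but the general amino acid permease BQ9382_C1-1685 did not pass. It was at 1150.2 and 1113 CPM in the *X33*-YPA libraries against 1094 and 1019.7 CPM in *GS115*-YPAH5x, while *GS115*-YPA held 8.91 and 11.6 CPM, and the log2 fold change between the compared groups was 0.10 ± 0.16 (SE) with a 95% interval of -0.25 to 0.45 (adjusted p = 0.64).

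**Figure D2:**
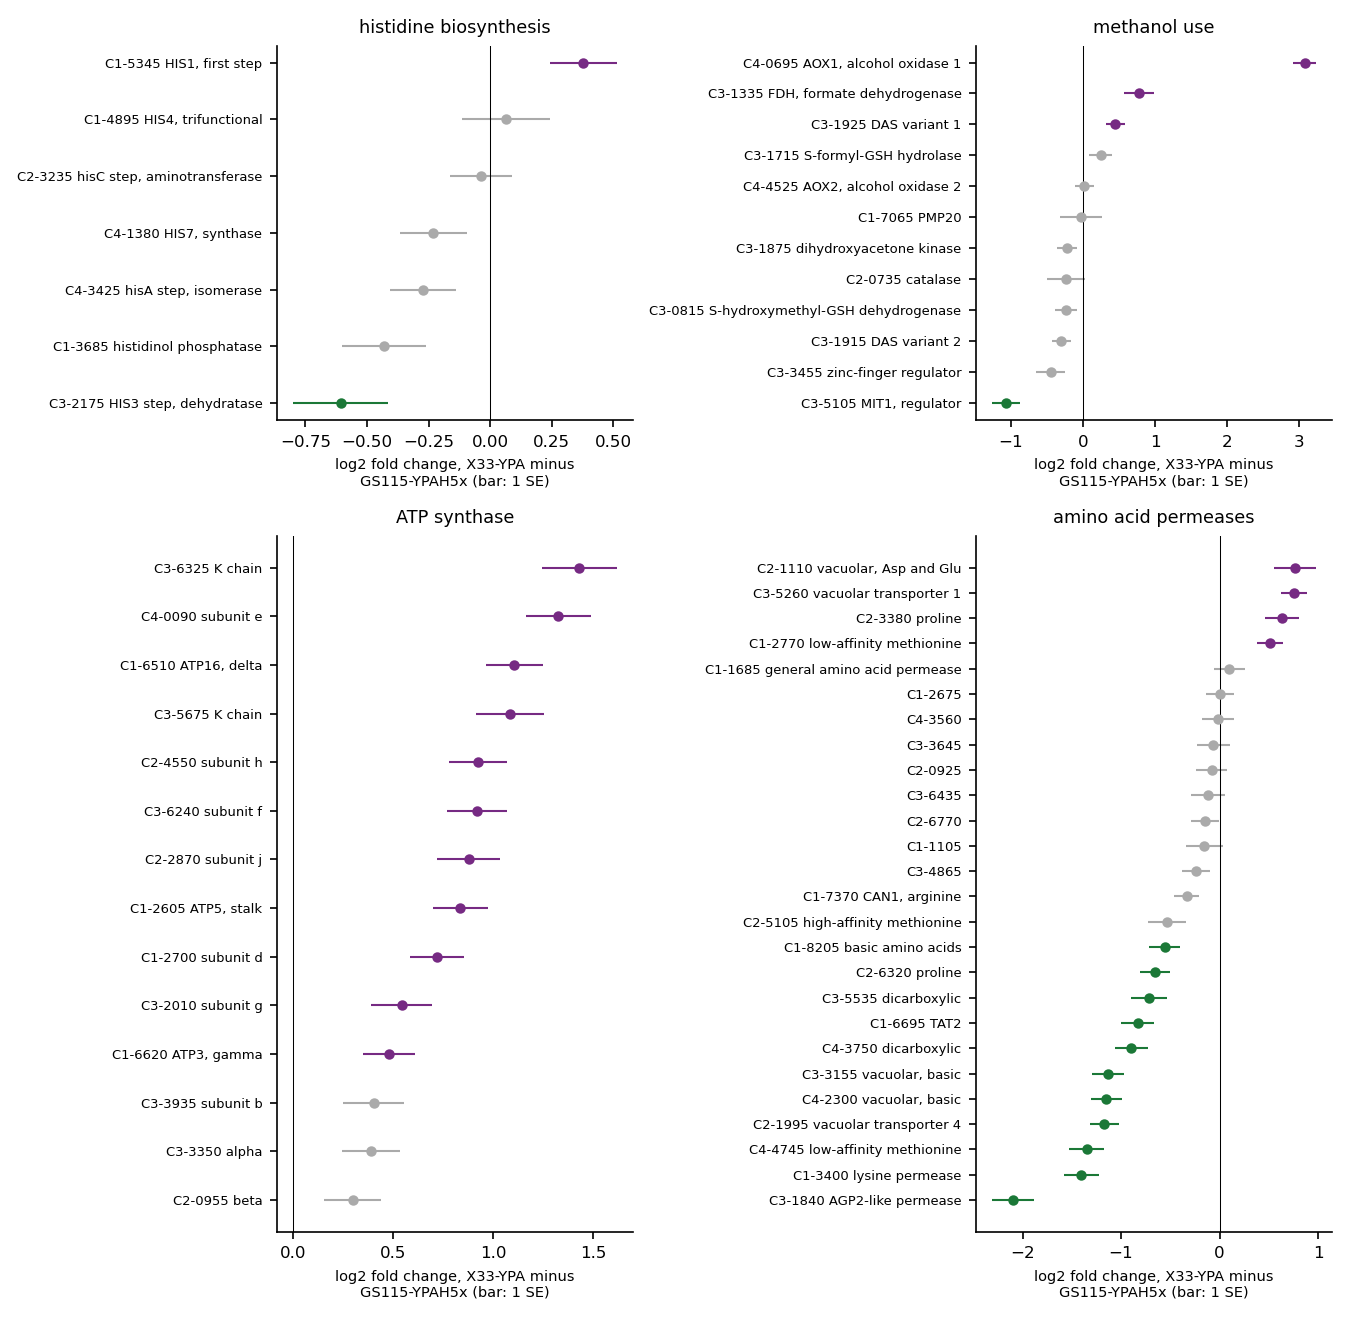
Each point is the log2 fold change of *X33*-YPA minus *GS115*-YPAH5x of 1 gene with a bar of 1 SE, for the 7 genes of histidine biosynthesis, 12 of methanol use, 14 of ATP synthase and 26 amino acid permeases, each named by its locus tag without the prefix BQ9382. Purple and green points passed an adjusted p of 0.05 as higher and lower in *X33*-YPA. *AOX1* stands at 3.08, well above the other genes of methanol use, and the AGP2-like permease at -2.10.

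Other routes of nitrogen also held members of both directions. Of 16 transporters of ammonium, peptides, allantoate, urea and purines, 5 were higher and 5 were lower (31.25% each, against 19.8% and 21.6% of all genes). The lower ones included BQ9382_C1-0275, annotated as a permease of cytosine, purines and related compounds, at 116 and 119 CPM in the *X33*-YPA libraries against 291 and 261 CPM in *GS115*-YPAH5x (-1.23 ± 0.14, SE, adjusted p = 3.5e-04), and BQ9382_C2-6735, a transporter of urea and polyamines, at 4.31 and 4.37 CPM in the *X33*-YPA libraries against 9.57 and 10.1 CPM in *GS115*-YPAH5x (-1.18 ± 0.19, adjusted p = 0.0016). A permease of uric acid and xanthine (BQ9382_C1-6905, -0.99) was lower too. The ammonium transporter *MEP2* (BQ9382_C1-6220) was higher, with 0.69 ± 0.18, a call that was lost without *X33*-YPA library 2 (adjusted p = 0.121) or *GS115*-YPAH5x library 1 (0.128). Of 16 genes of nitrogen source breakdown, 2 were higher (12.5%) and 5 were lower (31.25%). With library totals 5 were higher and 4 were lower. Urea amidolyase (BQ9382_C4-4405), which degrades urea, was lower in *X33*-YPA, at 43.1 and 41.4 CPM in the *X33*-YPA libraries against 97.04 and 92.5 CPM in *GS115*-YPAH5x (-1.17 ± 0.21, adjusted p = 0.0025). An amine oxidase (BQ9382_C2-5355, -0.94) and *GDH2* (BQ9382_C2-5330, -0.66), which releases ammonia from glutamate, were lower, and proline oxidase (BQ9382_C1-1425, 0.95), the first enzyme of proline breakdown, was higher. These 3 calls were lost without 1 to 3 of the single libraries (adjusted p between 0.0502 and 0.103). The 5 higher transporters fell to 1 or 0 without any 1 of the 4 libraries, the 5 lower ones to 3 without *GS115*-YPAH5x library 2, and the 5 lower breakdown genes to between 2 and 3 without *GS115*-YPAH5x library 2 or either *X33*-YPA library.

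*AOX1* (BQ9382_C4-0695), the alcohol oxidase that oxidizes methanol in the peroxisome and whose promoter drives many expression vectors of this yeast, was the annotated gene with the largest difference in favour of *X33*-YPA. It was measured at 371 and 429.5 CPM in the *X33*-YPA libraries against 50.9 and 43.9 CPM in *GS115*-YPAH5x, with 10.7 and 10.9 CPM in *GS115*-YPA. The 3 groups did not overlap, and the log2 fold change between the compared groups was 3.08 ± 0.16 (SE, adjusted p = 6.9e-06), a fold of 8.44. The largest log2 fold change of all, 4.59 ± 0.23 (adjusted p = 6.9e-06), belonged to the gene with the next locus tag, BQ9382_C4-0700, whose product is uncharacterized. It was measured at 52.6 and 80.4 CPM in the *X33*-YPA libraries against 2.71 and 2.81 CPM in *GS115*-YPAH5x and at 3.803 and 4.19 CPM in *GS115*-YPA. Here only the *X33*-YPA libraries were high. The sources used here give no strand setting for the counting, so reads of neighbouring or overlapping genes cannot be told apart, and what part of this value belongs to *AOX1* was not tested.

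The rest of the methanol pathway held smaller differences. Of 12 genes of methanol use, *AOX1* among them, 3 were higher in *X33*-YPA, 1 was lower and 8 did not pass. The 1 lower gene is annotated as a regulator. The median log2 fold change was -0.12. *AOX2* (BQ9382_C4-4525), the minor alcohol oxidase, was at 72.7 and 63.7 CPM in the *X33*-YPA libraries against 70.8 and 64.1 CPM in *GS115*-YPAH5x, with overlapping libraries and a log2 fold change of 0.02 ± 0.13 (SE) with a 95% interval of -0.28 to 0.31. Formate dehydrogenase (BQ9382_C3-1335), the last enzyme of formaldehyde oxidation, was at 938 and 767 CPM in the *X33*-YPA libraries against 528 and 465 CPM in *GS115*-YPAH5x (0.78 ± 0.21, adjusted p = 0.016). Dihydroxyacetone synthase variant 1 (BQ9382_C3-1925), which fixes formaldehyde, was at 89.4 and 82.8 CPM in the *X33*-YPA libraries against 68.04 and 57.9 CPM in *GS115*-YPAH5x (0.45 ± 0.14, adjusted p = 0.025), while variant 2 (BQ9382_C3-1915) had a log2 fold change of -0.30 ± 0.13 and did not pass. The calls of formate dehydrogenase and of variant 1 were lost when single libraries were left out, with adjusted p between 0.0604 and 0.266, and the variants may share reads. The gene annotated as transcriptional regulator MIT1 (BQ9382_C3-5105), known in this species as an activator of *AOX1*, was lower in *X33*-YPA, at 324 and 369.9 CPM in the *X33*-YPA libraries against 746 and 712 CPM in *GS115*-YPAH5x (-1.07 ± 0.19, adjusted p = 0.0024). Of 25 peroxins, the proteins that build peroxisomes, 3 were higher and 4 were lower, with *PEX30* (BQ9382_C3-3485) at 2.32 and 0.934 CPM in the *X33*-YPA libraries against 5.47 and 5.73 CPM in *GS115*-YPAH5x (-1.81 ± 0.34, adjusted p = 0.0035). With library totals 9 peroxins were higher and 1 was lower. *PEX25* (BQ9382_C3-5480, 0.74) and *PEX8* (BQ9382_C1-5965, 0.59) were higher, with both calls lost without single libraries (adjusted p between 0.0638 and 0.103). The peroxin counts were 1 higher and 1 lower without *X33*-YPA library 2 or *GS115*-YPAH5x library 2, 0 and 3 without *GS115*-YPAH5x library 1, and 6 and 5 without either *GS115*-YPA library. Of the methanol list, 1 gene was higher without *X33*-YPA library 1 or *GS115*-YPAH5x library 2.

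**Figure D3:**
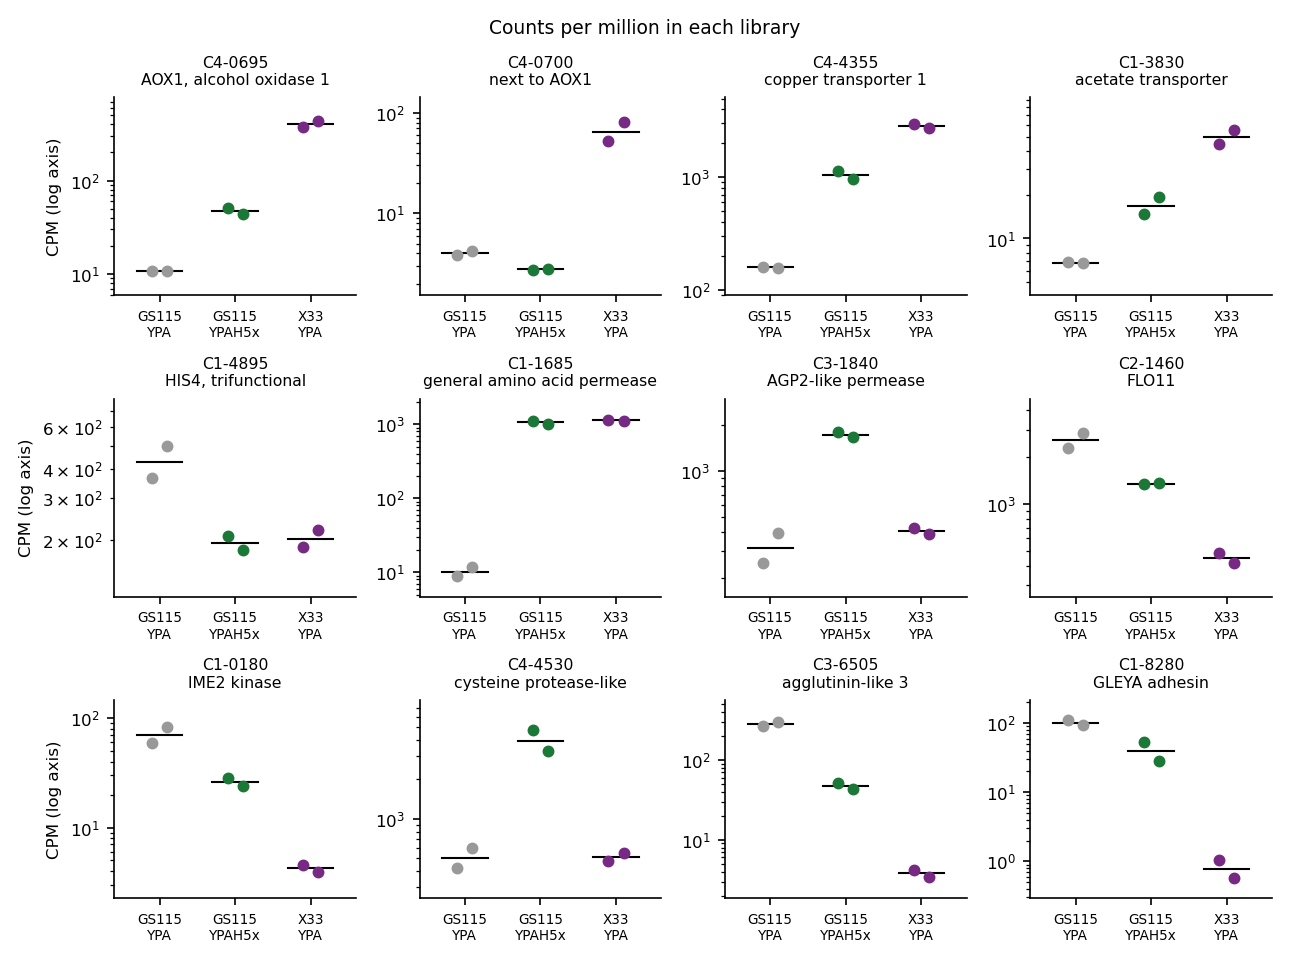
Each panel shows 1 gene, with its CPM in each of the 2 libraries of *GS115*-YPA, *GS115*-YPAH5x and *X33*-YPA on a log axis and a line at their geometric mean. *AOX1* and its neighbour are highest in *X33*-YPA, *HIS4* and the general amino acid permease lie at overlapping or close levels in the 2 compared groups, and the adhesin panels are lowest in *X33*-YPA.

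Subunits of the mitochondrial ATP synthase were higher in *X33*-YPA. Of 14 subunits, 11 were higher (78.6%, against 19.8% of all genes) and 0 were lower, and the median log2 fold change was 0.86. The 3 subunits that did not pass had log2 fold changes of 0.30 ± 0.14 (SE) for beta (BQ9382_C2-0955), 0.39 ± 0.15 for alpha (BQ9382_C3-3350) and 0.40 ± 0.15 for subunit b (BQ9382_C3-3935). Alpha and beta form the catalytic head. The largest difference was that of a membrane sector subunit annotated as the K chain (BQ9382_C3-6325), measured at 109 and 125 CPM in the *X33*-YPA libraries against 45.8 and 40.8 CPM in *GS115*-YPAH5x (1.43 ± 0.19, adjusted p = 6.6e-04). Subunit e (BQ9382_C4-0090), which helps ATP synthase form dimers, was at 136 and 163 CPM in the *X33*-YPA libraries against 61.03 and 58.3 CPM in *GS115*-YPAH5x (1.33 ± 0.16, adjusted p = 5.1e-04). *ATP16* (BQ9382_C1-6510), the delta subunit of the central stalk, was at 962 and 1019 CPM in the *X33*-YPA libraries against 471 and 449.8 CPM in *GS115*-YPAH5x (1.10 ± 0.14, adjusted p = 6.6e-04). The *GS115*-YPA levels of these 3 genes were 22.5 and 15.2, 22.4 and 17.2 and 111 and 94.6 CPM, below both groups. The libraries of the 2 compared groups did not overlap for any of the 14 subunits. Of all 5426 genes tested, 2196 likewise had *X33*-YPA above without overlap and 2033 had it below. Leaving out any 1 of the 4 libraries gave between 8 and 10 higher subunits, leaving out either *GS115*-YPA library gave 13, and library totals or upper quartile scaling gave 14. No gene lengths were used here. Among 48 genes of any function whose annotation gives a molecular mass, 6 of the 22 under 30 kDa were higher and 3 lower (median 0.20), against 2 higher and 9 lower of the 26 at or above it (median -0.19), a limit set after values were seen. The medians kept this order under every alternative, while single libraries left out gave 1 to 8 higher under the limit and 3 to 11 lower above it. The part of transcript length in the counts of ATP synthase, the respiratory chain and ribosomal proteins was not tested.

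The respiratory chain was less uniform. Of 21 genes of complexes II to IV with cytochrome c, 8 were higher in *X33*-YPA (38.1%, against 19.8% of all genes) and 2 were lower (9.5%, against 21.6%), and the median log2 fold change was 0.35. The higher ones included cytochrome c oxidase subunits VI (BQ9382_C3-1970, 279 and 291 CPM in the *X33*-YPA libraries against 169 and 156 CPM in *GS115*-YPAH5x, 0.81 ± 0.14, adjusted p = 0.0025) and IV (BQ9382_C2-5055, 0.74 ± 0.14, adjusted p = 0.003), a subunit of complex III (BQ9382_C2-3055, 0.73), and cytochrome c itself (BQ9382_C4-5240, 0.71 ± 0.15, adjusted p = 0.0049), the carrier between complexes III and IV. The 2 lower ones were the flavoprotein (BQ9382_C4-1210, -0.60) and the iron-sulfur subunit (BQ9382_C3-0320, -0.62) of succinate dehydrogenase, with adjusted p of 0.017 and 0.015. These calls were lost with library totals and without several single libraries (adjusted p between 0.0535 and 0.216), and that of cytochrome c without *GS115*-YPAH5x library 2 (0.0585). The number of higher members fell to 3 without *GS115*-YPAH5x library 2, to 4 without *GS115*-YPAH5x library 1 or *X33*-YPA library 2, and rose to 16 with library totals. Of 34 genes of complex I, the NADH dehydrogenase, 7 were higher (20.6%) and 6 were lower (17.6%), near the shares of all genes (19.8% and 21.6%). The MLRQ subunit (BQ9382_C4-1550) was at 142 and 167 CPM in the *X33*-YPA libraries against 75.4 and 71.6 CPM in *GS115*-YPAH5x (1.07 ± 0.15, adjusted p = 7.2e-04), while the large 78K chain (BQ9382_C2-4525) was at 179 and 149 CPM in the *X33*-YPA libraries against 287 and 346 CPM in *GS115*-YPAH5x (-0.95 ± 0.21, adjusted p = 0.0068), a call that was lost without *X33*-YPA library 2 (0.064) or *GS115*-YPAH5x library 2 (0.0585). The PDSW subunit (BQ9382_C1-2240) was lower as well (-0.75). The 7 higher complex I genes were 1 to 3 without either *GS115*-YPAH5x library or *X33*-YPA library 2, and 14 with library totals.

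For the tricarboxylic acid cycle, 5 of 11 genes were lower in *X33*-YPA (45.5%, against 21.6% of all genes) and 0 were higher (against 19.8%). The remaining 6 did not pass and had log2 fold changes between -0.09 and 0.25, so the median over the 11 was -0.09. *ACO1* (BQ9382_C1-0545), the aconitase, was measured at 1505 and 1395 CPM in the *X33*-YPA libraries against 3231 and 3097 CPM in *GS115*-YPAH5x (-1.13 ± 0.16, SE, adjusted p = 0.001), and a gene of the aconitase family that the table also describes as homoaconitase (BQ9382_C3-2890) at 207 and 222 CPM in the *X33*-YPA libraries against 407 and 478 CPM in *GS115*-YPAH5x (-1.04 ± 0.16, adjusted p = 0.0014). Malate dehydrogenase (BQ9382_C4-0725) was at 2117 and 2431 CPM in the *X33*-YPA libraries against 4115 and 4026 CPM in *GS115*-YPAH5x (-0.84 ± 0.14, adjusted p = 0.0021), and *MDH2* (BQ9382_C2-5740), which also stands in the acetate list, had -0.76 ± 0.13 (adjusted p = 0.0024). With library totals, 4 were lower and 5 were higher.

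Genes of acetate use held opposite directions. Of 17 genes of acetate use, the glyoxylate cycle and gluconeogenesis, 6 were lower in *X33*-YPA (35.3%, against 21.6% of all genes) and 3 were higher (17.6%, against 19.8%). With library totals 4 were lower and 6 were higher. Malate synthase (BQ9382_C4-4310), of the glyoxylate cycle, was measured at 2758 and 2791 CPM in the *X33*-YPA libraries against 6289 and 6461 CPM in *GS115*-YPAH5x (-1.20 ± 0.15, adjusted p = 5.4e-04), and isocitrate lyase *ICL1* (BQ9382_C1-5905), the other enzyme of that cycle, had a log2 fold change of -0.49 ± 0.13 (adjusted p = 0.017), a call lost under 4 alternatives (0.103 to 0.201). *PCK1* (BQ9382_C1-8050), the phosphoenolpyruvate carboxykinase of gluconeogenesis, was at 11107 and 10875 CPM in the *X33*-YPA libraries against 19950.1 and 19631 CPM in *GS115*-YPAH5x (-0.85 ± 0.15, adjusted p = 0.0024). *CAT8* (BQ9382_C2-2830), a transcriptional activator of gluconeogenic genes in *Saccharomyces cerevisiae*, was at 22.8 and 21.9 CPM in the *X33*-YPA libraries against 40.5 and 36.7 CPM in *GS115*-YPAH5x (-0.79 ± 0.15, adjusted p = 0.0034). All of these were lower in *X33*-YPA. The 3 higher genes were an acetyl-CoA synthetase (BQ9382_C3-4250, 0.54 ± 0.14, lost without 3 of the single libraries at an adjusted p of 0.0541 to 0.172) and the acetate transporter genes BQ9382_C1-3830 and BQ9382_C1-3590, which the table also describes as proteins of ammonia export. BQ9382_C1-3830 was at 44.9 and 55.8 CPM in the *X33*-YPA libraries against 14.7 and 19.1 CPM in *GS115*-YPAH5x (1.58 ± 0.17, adjusted p = 3.3e-04), and BQ9382_C1-3590 at 218 and 343 CPM in the *X33*-YPA libraries against 138 and 112 CPM in *GS115*-YPAH5x (1.16 ± 0.27, adjusted p = 0.0083), a call that was lost without *X33*-YPA library 2 (0.0756) or *GS115*-YPAH5x library 2 (0.0589). The gene of the same annotation with the tag before the first, BQ9382_C1-3825, had a log2 fold change of 0.31 ± 0.14 and did not pass. The higher count of acetate use was 1 without *X33*-YPA library 2 or *GS115*-YPAH5x library 2, and 6 with library totals.

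Sugar and carboxylate transporters were lower in *X33*-YPA in 7 of 17 cases (41.2%), higher in 1, and had a median log2 fold change of -0.57. BQ9382_C3-4965, annotated as a monocarboxylate transporter, was measured at 27.1 and 19.2 CPM in the *X33*-YPA libraries against 87.1 and 94.2 CPM in *GS115*-YPAH5x (-1.97 ± 0.18, SE, adjusted p = 1.6e-04). The high-affinity glucose transporter gene BQ9382_C1-0035 was at 66.4 and 56.9 CPM in the *X33*-YPA libraries against 141 and 151 CPM in *GS115*-YPAH5x (-1.24 ± 0.15, adjusted p = 4.4e-04), and a myo-inositol transporter (BQ9382_C2-4335) at 1854 and 2087 CPM in the *X33*-YPA libraries against 4006 and 3977 CPM in *GS115*-YPAH5x (-1.02 ± 0.15, adjusted p = 0.0012). The single higher member, BQ9382_C3-1585, had 0.60 ± 0.18, and its call was lost without *X33*-YPA library 1 (adjusted p = 0.153), *GS115*-YPAH5x library 1 (0.143) or *GS115*-YPAH5x library 2 (0.124).

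Of 25 genes of iron, siderophore and copper uptake, 4 were higher in *X33*-YPA and 5 were lower, shares near those of all genes (19.8% and 21.6%), and leaving out any 1 of the 4 libraries left 3 lower. With either *GS115*-YPA library left out 7 were higher and 7 lower, and with library totals 9 and 2. Of the 4 higher ones, 3 have copper in their annotation, which was seen after their values. The high-affinity copper transporter of the plasma membrane (BQ9382_C4-4355) was measured at 2943 and 2729 CPM in the *X33*-YPA libraries against 1134 and 965 CPM in *GS115*-YPAH5x, while *GS115*-YPA held 160.3 and 155 CPM. The 3 groups were well apart, and the log2 fold change was 1.43 ± 0.15 (SE, adjusted p = 2.4e-04). The copper chaperone *ATX1* (BQ9382_C1-0435), which hands copper to the secretory pathway, was at 21.6 and 23.5 CPM in the *X33*-YPA libraries against 8.26 and 7.13 CPM in *GS115*-YPAH5x (1.55 ± 0.19, adjusted p = 4.9e-04), and a gene annotated as *CTR2* (BQ9382_C2-2695), a copper transporter of the vacuole in *S. cerevisiae*, had 0.75 ± 0.17 (adjusted p = 0.0072), a call lost without *X33*-YPA library 2 (0.0569) or *GS115*-YPAH5x library 2 (0.0763). A transporter of iron stored in the vacuole (BQ9382_C2-4695) was higher as well (0.92 ± 0.15, adjusted p = 0.0016). The lower ones included *AFT1* (BQ9382_C1-6045), the activator of iron uptake genes in *S. cerevisiae*, at 112 and 184 CPM in the *X33*-YPA libraries against 361 and 380.3 CPM in *GS115*-YPAH5x (-1.33 ± 0.26, adjusted p = 0.0038), and a siderophore transporter for ferrioxamine B (BQ9382_C2-6955) at 88.4 and 76.7 CPM in the *X33*-YPA libraries against 239.8 and 147 CPM in *GS115*-YPAH5x (-1.23 ± 0.22, adjusted p = 0.0027).

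Cytosolic ribosomal proteins were higher in *X33*-YPA in 68 of 80 cases (85.0%, against 19.8% of all genes), a group of mostly small proteins for which the part of transcript length was not tested, and their median log2 fold change was 0.71. For 11 of them the log2 fold change was at least 1. Protein S10 of the small subunit (BQ9382_C4-0330) was measured at 362 and 394 CPM in the *X33*-YPA libraries against 159.6 and 149 CPM in *GS115*-YPAH5x (1.29 ± 0.14, SE, adjusted p = 2.9e-04), and BQ9382_C1-2835, of the large subunit, at 195 and 202 CPM in the *X33*-YPA libraries against 85.97 and 84.3 CPM in *GS115*-YPAH5x (1.22 ± 0.13, adjusted p = 2.9e-04). Protein S18 (BQ9382_C2-2665) had 0.995 ± 0.13. For S10 and BQ9382_C1-2835, *GS115*-YPA was below both groups, at 114 and 104 and 63.02 and 68.99 CPM. The single lower member, BQ9382_C3-4900, was at 47.6 and 53.5 CPM in the *X33*-YPA libraries against 70.1 and 71.2 CPM in *GS115*-YPAH5x (-0.48 ± 0.13, adjusted p = 0.015), and its call was lost under 4 alternatives (adjusted p between 0.0884 and 0.204). The number of higher members fell to 30 without *GS115*-YPAH5x library 2, 44 without *X33*-YPA library 2 and 45 without *GS115*-YPAH5x library 1. Mitochondrial ribosomal proteins had 29 of 76 members higher (38.2%) and 1 lower, with a median of 0.35, and their count fell to between 9 and 15 without *GS115*-YPAH5x library 1 or 2 or *X33*-YPA library 2 and rose to 57 with library totals. *MNP1* (BQ9382_C1-6030), of the large mitochondrial subunit, was at 26.6 and 28.5 CPM in the *X33*-YPA libraries against 13.2 and 11.7 CPM in *GS115*-YPAH5x (1.14 ± 0.15, adjusted p = 6.0e-04), and the mitochondrial proteins S8 (BQ9382_C1-3625) and L37 (BQ9382_C4-0150) had 1.20 ± 0.16 and 1.06 ± 0.16. The lower one, BQ9382_C2-5780, carries a domain of superoxide dismutase and had -0.95 ± 0.17 (adjusted p = 0.0025).

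Factors that build ribosomes held both directions. Of 149 genes of ribosome biogenesis and rRNA processing, 32 were higher (21.5%, near the 19.8% of all genes) and 15 were lower (10.1%, against 21.6%), with a median log2 fold change of 0.05. *NOP15* (BQ9382_C4-3225), a nucleolar protein, was at 40.5 and 43.6 CPM in the *X33*-YPA libraries against 20.2 and 20.6 CPM in *GS115*-YPAH5x (1.05 ± 0.18, SE, adjusted p = 0.0019). In the other direction, *UTP12* (BQ9382_C2-3690), of the processome of the small subunit, was at 34.9 and 31.1 CPM in the *X33*-YPA libraries against 73.7 and 87.5 CPM in *GS115*-YPAH5x (-1.29 ± 0.15, adjusted p = 3.8e-04), and *LSG1* (BQ9382_C1-2580), a GTPase of the large subunit, had -0.999 ± 0.16 (adjusted p = 0.0017). *RRN7* (BQ9382_C4-3755, -0.86), of rRNA transcription, was also lower. The 32 higher genes fell to 9 and 16 without *GS115*-YPAH5x library 2 and 1, to 12 and 20 without *X33*-YPA library 2 and 1, and rose to 61 with library totals. Aminoacyl-tRNA synthetases, which charge tRNAs, had 2 of 32 members higher and 3 lower, among them those for threonine in mitochondria (BQ9382_C2-3300, 0.92), tryptophan (BQ9382_C3-5640, -0.62) and glutamine (BQ9382_C3-4925, -0.49), whose calls were lost under 2 to 5 alternatives (adjusted p between 0.0516 and 0.202). With library totals 13 synthetases were higher and, by edgeR, 0 were lower, and 7 were higher without either *GS115*-YPA library. Without *X33*-YPA library 2 or *GS115*-YPAH5x library 2 the higher count was 0. Of 7 core histone genes, 4 were higher (57.1%, against 19.8% of all genes) and 0 were lower, at a median of 0.47. With 6 genes kept that were dropped by hand, 5 of 13 were higher and 1 was lower, at a median of 0.18. The 4 higher core histone genes were led by a gene of histone H4 (BQ9382_C2-1155) at 253 and 269 CPM in the *X33*-YPA libraries against 154 and 113 CPM in *GS115*-YPAH5x (0.97 ± 0.17, adjusted p = 0.0022), with those of H3 (BQ9382_C2-1150, 0.88) and H2B (BQ9382_C2-4690, 0.52), and close copies of histone genes may share reads. The H2B call was lost without 3 of the single libraries (0.0639 to 0.221). In *GS115*-YPA the H4 gene was at 8.57 and 7.61 CPM. The histone count fell to 2 without *X33*-YPA library 2 or *GS115*-YPAH5x library 2. Among 49 genes that replicate DNA or make deoxynucleotides, 11 were higher and 6 were lower, and the largest difference was that of the second subunit of DNA polymerase epsilon (BQ9382_C3-2310), at 19.1 and 20.3 CPM in the *X33*-YPA libraries against 57.8 and 61.03 CPM in *GS115*-YPAH5x (-1.59 ± 0.14, adjusted p = 1.1e-04). The helicase genes *HCS1* (BQ9382_C1-2695, -1.09) and *DNA2* (BQ9382_C4-3815, -0.78) were lower, and a subunit of replication factor C (BQ9382_C2-3610, 0.99), which loads the sliding clamp, was higher. The 11 higher genes were 3 without either *GS115*-YPAH5x library, 5 and 6 without *X33*-YPA library 1 and 2, 17 without either *GS115*-YPA library and 26 with library totals.

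Heat shock proteins and chaperones were lower in *X33*-YPA in 27 of 53 cases (50.9%, against 21.6% of all genes) and higher in 5, with a median log2 fold change of -0.43. With library totals 11 were lower and 12 were higher, at a median of -0.16, so the balance of calls depends on the scaling. With the 26 genes kept that were dropped by hand for another function or a conflicting annotation, 14 of 79 were higher and 29 lower, at a median of -0.14. A pair of J-proteins, which activate Hsp70, had the largest differences. BQ9382_C3-3840 was measured at 33.7 and 31.1 CPM in the *X33*-YPA libraries against 83.9 and 79.8 CPM in *GS115*-YPAH5x (-1.34 ± 0.13, SE, adjusted p = 1.9e-04), and BQ9382_C2-0055 at 138 and 100.3 CPM in the *X33*-YPA libraries against 289 and 326 CPM in *GS115*-YPAH5x (-1.37 ± 0.19, adjusted p = 7.2e-04). *SSC1* (BQ9382_C3-4465), an Hsp70 of mitochondria in *S. cerevisiae*, was at 6064 and 5646 CPM in the *X33*-YPA libraries against 11131 and 10572 CPM in *GS115*-YPAH5x (-0.89 ± 0.14, adjusted p = 0.0015). Several abundant members shared this direction with smaller differences, among them *STI1* (BQ9382_C2-4170, -0.91), a partner of Hsp90, the Hsp90 gene (BQ9382_C1-4735, -0.54), *HSP104* (BQ9382_C1-0540, -0.44), which dissolves protein aggregates, and the BiP gene of the endoplasmic reticulum (BQ9382_C2-6260, -0.59). The calls of Hsp90, *HSP104* and BiP were each lost under 3 to 6 alternatives (adjusted p between 0.0513 and 0.268), library totals among them. In 21 of the 32 members that passed, the *GS115*-YPA level was above both groups. The higher members were of small size, and included *SIL1* (BQ9382_C1-2840, 0.69), the exchange factor of BiP, whose call was lost without either *GS115*-YPAH5x library (adjusted p = 0.0561 and 0.051). The number of lower members fell to 8 without *GS115*-YPAH5x library 2 and to between 13 and 15 without any other single library of the 2 groups.

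The proteasome had 8 of 41 members lower (19.5%, near the 21.6% of all genes) and 1 higher (2.44%, against 19.8%). The median was -0.18, and library totals gave 0 lower and 6 higher members in place of 8 and 1. The higher one, BQ9382_C2-4795, annotated as a chaperone of 20S assembly, was at 5.68 and 4.895 CPM in the *X33*-YPA libraries against 2.15 and 2.54 CPM in *GS115*-YPAH5x (1.17 ± 0.23, SE, adjusted p = 0.0036). The lower ones included a beta subunit of the core (BQ9382_C2-0400, -0.60) and *RPT1* (BQ9382_C4-1195, -0.56), an ATPase of the cap, whose calls were lost with library totals and without 2 or 3 of the single libraries (adjusted p between 0.0515 and 0.137). With edgeR the count of lower members was 0 with library totals and without *X33*-YPA library 2 or *GS115*-YPAH5x library 2, and 2 without either other library. Redox defence had 13 of 38 members higher (34.2%, against 19.8% of all genes) and 3 lower (7.9%, against 21.6%), with a glutathione S-transferase (BQ9382_C2-0645) at 410.2 and 382 CPM in the *X33*-YPA libraries against 193 and 209.7 CPM in *GS115*-YPAH5x (0.98 ± 0.16, adjusted p = 0.0016) and a thioredoxin-like gene (BQ9382_C4-3770) at 713 and 806 CPM in the *X33*-YPA libraries against 424 and 444 CPM in *GS115*-YPAH5x (0.81 ± 0.17, adjusted p = 0.0053). A peroxiredoxin (BQ9382_C2-4265, 0.65) was higher and cytochrome c peroxidase (BQ9382_C2-0715, -0.82) lower, and both calls were lost without *X33*-YPA library 2 or *GS115*-YPAH5x library 2 (adjusted p between 0.051 and 0.0814). The higher count of redox defence fell to between 2 and 5 when any 1 of the 4 libraries was left out.

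Adhesins of the cell surface held some of the largest differences. Of 9 genes of adhesins and flocculins, proteins that bind cells to each other and to surfaces, 6 were lower in *X33*-YPA (66.7%) and 0 were higher, with a median log2 fold change of -1.08 (-0.56 with 6 genes kept that were dropped by hand), and the count was 6 without any 1 of the 4 libraries. BQ9382_C1-8280, which holds a GLEYA adhesin domain, was measured at 1.04 and 0.569 CPM in the *X33*-YPA libraries against 53.8 and 28.6 CPM in *GS115*-YPAH5x. This was the lowest log2 fold change of all genes, -5.71 ± 0.37 (SE, adjusted p = 2.6e-05), and the *GS115*-YPA libraries were higher still, at 109 and 92.7 CPM. The agglutinin-like gene BQ9382_C3-6505 was at 4.14 and 3.46 CPM in the *X33*-YPA libraries against 51.6 and 43.5 CPM in *GS115*-YPAH5x (-3.65 ± 0.17, adjusted p = 6.9e-06), with 269 and 298 CPM in *GS115*-YPA. *FLO11* (BQ9382_C2-1460), a flocculin of filamentous growth and biofilms in *S. cerevisiae*, was at 483 and 417 CPM in the *X33*-YPA libraries against 1343 and 1356 CPM in *GS115*-YPAH5x (-1.59 ± 0.16, adjusted p = 2.4e-04). For these 3 genes, all 3 groups stood apart in the same order.

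Not every adhesin had that order. BQ9382_C3-6445, annotated as a lectin-like protein, was at 498 and 592 CPM in the *X33*-YPA libraries against 1020.3 and 1039 CPM in *GS115*-YPAH5x (-0.92 ± 0.20, adjusted p = 0.0059, a call lost at 0.0506 without *X33*-YPA library 1) but at only 68.5 and 104 CPM in *GS115*-YPA, and BQ9382_C3-6460 had the same pattern (-1.08 ± 0.22, adjusted p = 0.0051). The 3 adhesins that did not pass had log2 fold changes of -0.56 (BQ9382_C1-7265), -0.40 (BQ9382_C4-5335) and 0.10 (BQ9382_C1-7275). Adhesin genes resemble each other, so reads may be shared among them. Cell wall and mannoprotein genes were lower in 19 of 45 cases (42.2%, against 21.6% of all genes) and higher in 5 (11.1%, against 19.8%). *FKS1* (BQ9382_C2-5600), the glucan synthase, was at 193 and 162 CPM in the *X33*-YPA libraries against 483 and 407 CPM in *GS115*-YPAH5x (-1.33 ± 0.17, adjusted p = 6.6e-04), *TIR3* (BQ9382_C4-2335), a cell wall protein, had -0.99 ± 0.13, and an endoglucanase (BQ9382_C4-5070) was at 5.68 and 3.62 CPM in the *X33*-YPA libraries against 15.01 and 18.97 CPM in *GS115*-YPAH5x (-1.88 ± 0.25, adjusted p = 7.2e-04). *SCW11* (BQ9382_C2-6750), a glucosidase of the wall, was higher (0.85 ± 0.17), a call lost without *GS115*-YPAH5x library 2 (adjusted p = 0.0685). With library totals 10 cell wall genes were lower and 10 higher, and the number of lower ones fell to 9 without *GS115*-YPAH5x library 2 and 11 without *GS115*-YPAH5x library 1.

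**Figure D4:**
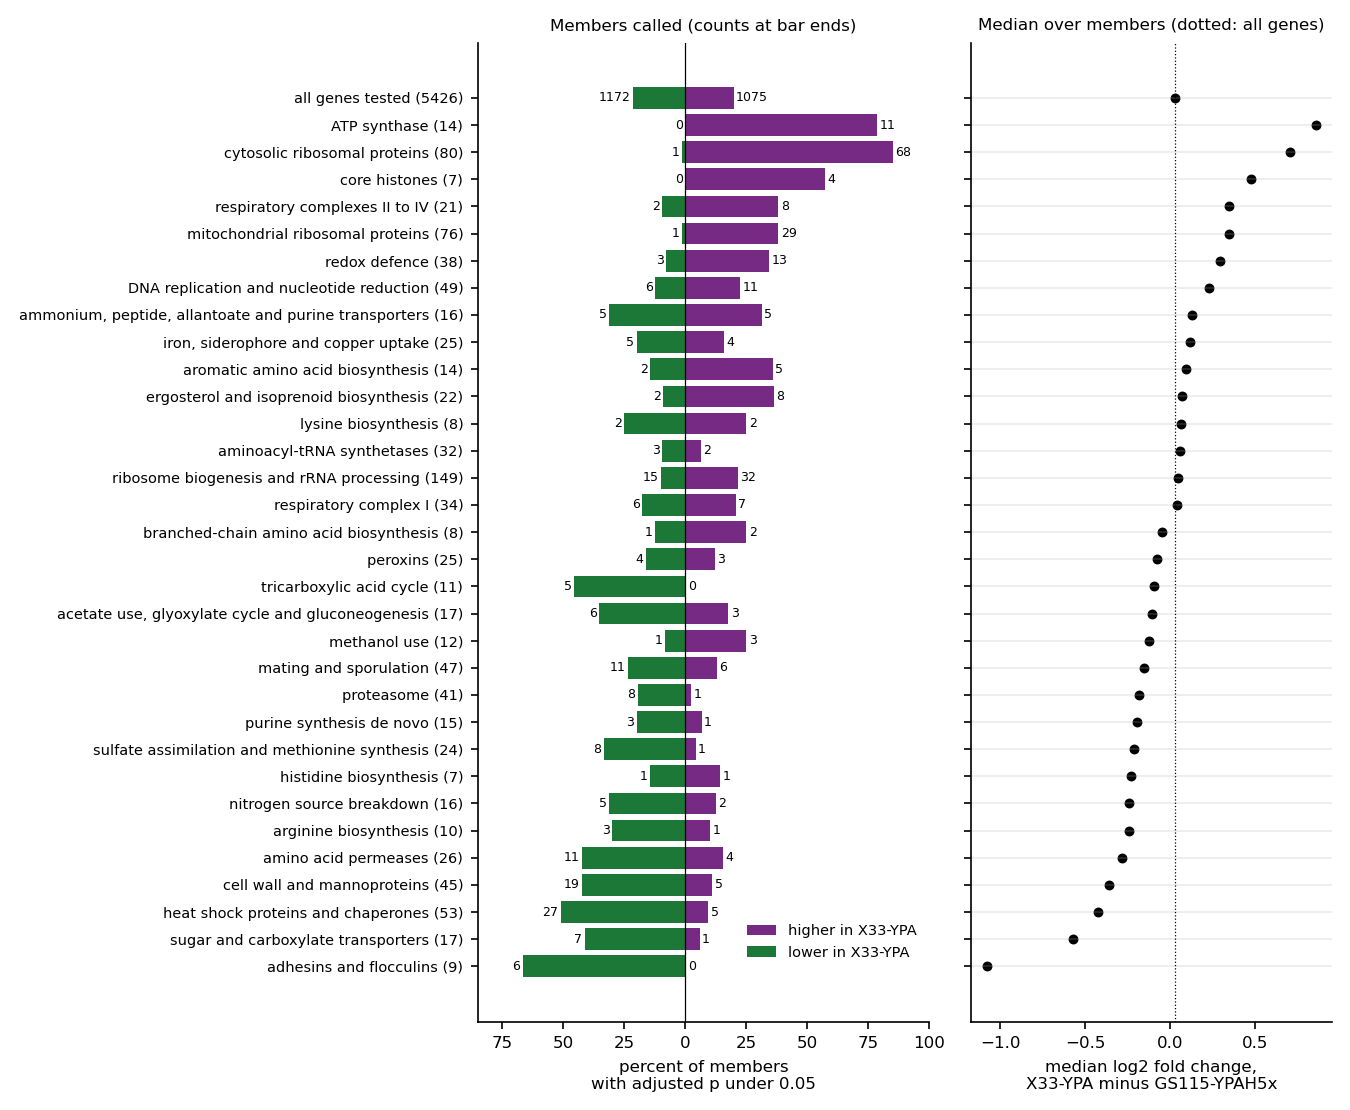
Left, the percent of the members of each list that passed an adjusted p of 0.05 as higher (purple) or lower (green) in *X33*-YPA than in *GS115*-YPAH5x, with counts at the bar ends and the number of genes tested in brackets. Right, the median log2 fold change of the members, with all genes at 0.03 (dotted). ATP synthase and cytosolic ribosomal proteins lie farthest on the higher side and adhesins on the lower side, and with library totals the chaperones had 12 higher and 11 lower members in place of 5 and 27.

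Genes of mating and sporulation were counted as a sign of other cell states. Of 47 such genes, 11 were lower in *X33*-YPA (23.4%) and 6 were higher, shares near and below those of all genes. With library totals this balance was reversed, at 6 lower and 11 higher. *IME2* (BQ9382_C1-0180), a kinase of meiosis, was measured at 4.59 and 3.94 CPM in the *X33*-YPA libraries against 28.1 and 24.1 CPM in *GS115*-YPAH5x (-2.62 ± 0.20, SE, adjusted p = 7.0e-05), with 58.6 and 82.99 CPM in *GS115*-YPA. *RME1* (BQ9382_C1-3910), a zinc finger regulator of meiosis, was at 649 and 417 CPM in the *X33*-YPA libraries against 2374 and 2311 CPM in *GS115*-YPAH5x (-2.14 ± 0.22, adjusted p = 2.5e-04), with 408 and 523 CPM in *GS115*-YPA, so *GS115*-YPAH5x was the only high group. A pheromone-regulated membrane protein gene (BQ9382_C1-0190) was at 97.7 and 114 CPM in the *X33*-YPA libraries against 274 and 376 CPM in *GS115*-YPAH5x (-1.62 ± 0.18, adjusted p = 3.3e-04). The mating-type alpha1 gene (BQ9382_C4-0400) was at 16.8 and 8.402 CPM in the *X33*-YPA libraries against 4.297 and 4.65 CPM in *GS115*-YPAH5x, a log2 fold change of 1.49 ± 0.34 (adjusted p = 0.0081), and this call was lost without *X33*-YPA library 1 (0.0662). A sporulation-specific chitinase (BQ9382_C3-5975, 0.69) was higher, a call lost without *GS115*-YPAH5x library 2 (0.071). The number of higher members fell to between 1 and 4 without any 1 of the 4 libraries, and that of lower members to 6 without *GS115*-YPAH5x library 2 or with library totals.

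Other pathways of amino acids and purines held members of both directions. Of 24 genes of sulfate assimilation and methionine synthesis, 8 were lower in *X33*-YPA (33.3%) and 1 was higher. With library totals 3 were lower and 5 were higher. A homocysteine S-methyltransferase (BQ9382_C4-1600), which makes methionine, was measured at 31.95 and 28.8 CPM in the *X33*-YPA libraries against 73.1 and 82.2 CPM in *GS115*-YPAH5x (-1.35 ± 0.15, SE, adjusted p = 3.3e-04), and a sulfate transporter (BQ9382_C1-5115) at 37.4 and 32.4 CPM in the *X33*-YPA libraries against 71.8 and 71.4 CPM in *GS115*-YPAH5x (-1.04 ± 0.14, adjusted p = 6.6e-04). Cobalamin-independent methionine synthase (BQ9382_C2-6170, -0.77) was lower and homoserine dehydrogenase (BQ9382_C1-4320, 0.50) higher, with calls lost without 1 and 4 of the single libraries (adjusted p between 0.0697 and 0.201). The lower count fell to between 3 and 4 without any 1 of the 4 libraries and to 3 with library totals. Of 15 genes of purine synthesis, which shares AICAR with the histidine pathway, 1 was higher and 3 were lower, namely SAICAR synthetase (BQ9382_C1-6535, 0.48), a phosphoribosyl pyrophosphate synthetase (BQ9382_C2-1005, -0.57), a gene annotated *ADE5* (BQ9382_C3-2275, -0.53) and adenylosuccinate synthetase (BQ9382_C4-1855, -0.38), and each of these calls was lost without any 1 of the 4 libraries (adjusted p between 0.055 and 0.246). That of adenylosuccinate synthetase was also lost under every other scaling (0.0521 to 0.534). Those of BQ9382_C2-1005 and BQ9382_C3-2275 were also lost with upper quartile scaling (adjusted p = 0.0512 and 0.0792) and with library totals (0.154 and 0.238). With library totals the list had 4 higher and, by edgeR, 0 lower. Arginine synthesis had 1 of 10 genes higher and 3 lower, with an ornithine transporter of mitochondria (BQ9382_C2-4100) at 8.98 and 12.4 CPM in the *X33*-YPA libraries against 20.5 and 22.98 CPM in *GS115*-YPAH5x (-1.02 ± 0.18, adjusted p = 0.0024). *ARG2* (BQ9382_C1-5230, -0.96), the first enzyme of the pathway, and ornithine carbamoyltransferase (BQ9382_C3-3090, -0.69) were lower and the ornithine carrier *ORT1* (BQ9382_C3-6020, 0.64) higher, with calls lost under 1 to 5 alternatives (adjusted p between 0.0502 and 0.206).

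Lysine synthesis had 2 of 8 higher and 2 lower (25% each, against 19.8% and 21.6% of all genes). Homoaconitase (BQ9382_C4-0840), of lysine synthesis, was at 12.1 and 13.9 CPM in the *X33*-YPA libraries against 25.5 and 20.3 CPM in *GS115*-YPAH5x (-0.81 ± 0.17, adjusted p = 0.005), with 249 and 302 CPM in *GS115*-YPA. Homocitrate synthase (BQ9382_C1-3255, 0.63) and homoisocitrate dehydrogenase (BQ9382_C2-0970, 0.58), of the same pathway, were higher, with each call lost without 2 of the single libraries (adjusted p between 0.0538 and 0.147). Synthesis of branched-chain amino acids had 2 of 8 higher (25%) and 1 lower (12.5%). With 8 genes kept that were dropped by hand, 3 of 16 were higher and 4 were lower, so the balance depends on the list. A gene with the same conflict in its annotation, a regulatory subunit of acetolactate synthase in the table (BQ9382_C1-1075), was left out of that list and had -1.40 ± 0.17 (adjusted p = 4.4e-04). In the leucine branch, 3-isopropylmalate dehydrogenase (BQ9382_C3-6355) was at 127 and 135 CPM in the *X33*-YPA libraries against 70.4 and 60.7 CPM in *GS115*-YPAH5x (0.998 ± 0.14, adjusted p = 8.8e-04), while the dehydratase of the step before it (BQ9382_C2-5010) was at 33.9 and 33.7 CPM in the *X33*-YPA libraries against 57.4 and 74.5 CPM in *GS115*-YPAH5x (-0.96 ± 0.23, adjusted p = 0.0086), a call that was lost without *X33*-YPA library 2 (0.057) or *GS115*-YPAH5x library 2 (0.0747). A regulatory subunit of acetolactate synthase (BQ9382_C2-3835, 0.47) was higher, a call lost without 3 of the single libraries (0.0997 to 0.19). Aromatic amino acid synthesis had 5 of 14 higher (35.7%) and 2 lower (14.3%). A further gene (BQ9382_C1-3330) is named chorismate synthase in the table but an uncharacterized protein by its database match, and was kept out of the list, which holds another chorismate synthase. It was at 25.7 and 29.1 CPM in the *X33*-YPA libraries against 145 and 156 CPM in *GS115*-YPAH5x, with 36.1 and 87.4 CPM in *GS115*-YPA, and had -2.46 ± 0.33 (adjusted p = 7.2e-04). The isomerase of tryptophan synthesis (BQ9382_C1-0120, 0.82) and tryptophan synthase (BQ9382_C3-3030, 0.52) were higher, and *ARO1* (BQ9382_C3-3715, -0.62), of the shikimate pathway, was lower, the latter 2 with calls lost under 3 and 5 alternatives (0.0571 to 0.113). The 5 higher ones were 1 without *X33*-YPA library 2 or *GS115*-YPAH5x library 2, and 3 without *GS115*-YPAH5x library 1. Ergosterol and isoprenoid synthesis had 8 of 22 higher (36.4%, against 19.8% of all genes) and 2 lower (9.09%, against 21.6%), with *ERG28* (BQ9382_C3-3505), a scaffold of sterol enzymes, at 42.4 and 51.8 CPM in the *X33*-YPA libraries against 21.6 and 22.5 CPM in *GS115*-YPAH5x (1.10 ± 0.14, adjusted p = 6.6e-04). Squalene epoxidase (BQ9382_C3-5890, 0.69) and *ERG2* (BQ9382_C4-4270, 0.72) were higher and an HMG-CoA reductase (BQ9382_C2-1330, -0.57) lower, and each lost its call under 1 to 3 alternatives (0.0525 to 0.118). The higher count of this list was 1 to 3 without either *GS115*-YPAH5x library or *X33*-YPA library 2.

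Many of the largest differences were in genes of unknown function. On the lower side, BQ9382_C4-4535, a predicted protein, was measured at 4.03 and 2.596 CPM in the *X33*-YPA libraries against 54.4 and 43.9 CPM in *GS115*-YPAH5x (-3.90 ± 0.25, SE, adjusted p = 2.6e-05), and the gene with the tag before it, BQ9382_C4-4530, annotated as a papain-like cysteine protease, at 475 and 554 CPM in the *X33*-YPA libraries against 4714 and 3274 CPM in *GS115*-YPAH5x (-2.96 ± 0.24, adjusted p = 7.7e-05). *GS115*-YPAH5x was the high group in both, whereas BQ9382_C1-0005 was highest in *GS115*-YPA, at 95.2 and 96.7 CPM. It was at 1.06 and 0.638 CPM in the *X33*-YPA libraries against 10.7 and 9.21 CPM in *GS115*-YPAH5x (-3.57 ± 0.22, adjusted p = 2.6e-05). BQ9382_C4-3335, BQ9382_C4-3345 and BQ9382_C4-3350, whose tag numbers lie near each other, shared the first pattern. Their log2 fold changes were -2.85 ± 0.24, -3.51 ± 0.30 and -2.14 ± 0.21, with adjusted p of 9.1e-05, 9.8e-05 and 2.1e-04. BQ9382_C4-3345, with similarity to an immunoglobulin A1 protease, was at 44.8 and 41.1 CPM in the *X33*-YPA libraries against 558 and 423 CPM in *GS115*-YPAH5x, and BQ9382_C4-3350, annotated as adenylate cyclase, which makes the second messenger cAMP, was at 182 and 175 CPM in the *X33*-YPA libraries against 857 and 722 CPM in *GS115*-YPAH5x. The last of these was outside the naming rule and was added after its values were seen.

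Regulators were among the lowest genes as well. A transcriptional activator of pseudohyphal growth (BQ9382_C4-3515) was measured at 67.1 and 64.7 CPM in the *X33*-YPA libraries against 494 and 454 CPM in *GS115*-YPAH5x (-2.85 ± 0.24, adjusted p = 9.1e-05). The zinc finger gene annotated *STP4* (BQ9382_C3-5190) was at 116 and 43.1 CPM in the *X33*-YPA libraries against 718 and 404 CPM in *GS115*-YPAH5x (-2.82 ± 0.46, adjusted p = 0.0018). BQ9382_C4-5305 (-2.95), BQ9382_C4-1020 (-2.81) and the non-coding gene BQ9382_C4-3545 (-2.90), whose *X33*-YPA libraries were at 3.05 and 0.6603 CPM, complete the 12 lowest.

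On the higher side, the 10 tags below *AOX1* and its neighbour had log2 fold changes between 1.57 and 1.96. BQ9382_C3-4670, a conserved gene of unknown function, was measured at 35.6 and 33.6 CPM in the *X33*-YPA libraries against 10.4 and 7.395 CPM in *GS115*-YPAH5x (1.96 ± 0.26, SE, adjusted p = 7.2e-04), and its tag neighbour BQ9382_C3-4675 at 16.1 and 13.6 CPM in the *X33*-YPA libraries against 5.65 and 3.86 CPM in *GS115*-YPAH5x (1.64 ± 0.24, adjusted p = 9.7e-04). BQ9382_C2-6445, also of unknown function, was at 36.99 and 41.4 CPM in the *X33*-YPA libraries against 14.04 and 9.91 CPM in *GS115*-YPAH5x (1.71 ± 0.19, adjusted p = 3.6e-04), and BQ9382_C2-3130, annotated only with a Rossmann fold of NAD(P)-binding enzymes, at 78.6 and 74.05 CPM in the *X33*-YPA libraries against 27.2 and 24.3 CPM in *GS115*-YPAH5x (1.57 ± 0.14, adjusted p = 1.1e-04). *VMA21* (BQ9382_C1-3770), an assembly factor of the vacuolar ATPase, was at 10.2 and 11.4 CPM in the *X33*-YPA libraries against 3.68 and 3.19 CPM in *GS115*-YPAH5x (1.65 ± 0.25, adjusted p = 0.0012). The tags BQ9382_C1-3775 and BQ9382_C1-3780, next to it, held identical counts in every library and so count as 1 measurement, with a log2 fold change of 1.70. *SEN34* (BQ9382_C2-0525), a subunit of the tRNA splicing endonuclease (1.62 ± 0.28), and BQ9382_C3-5445 (1.81 ± 0.27) were low in all libraries, at 9.57 and 11.3 CPM and at 4.197 and 3.62 CPM in *X33*-YPA.

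The level without added histidine lay on different sides of the 2 groups. Among the 1075 genes that were higher in *X33*-YPA, the mean *GS115*-YPA level was below both groups in 561 (52.2%), between them in 342 (31.8%) and above both in 172. Among the 1172 lower genes it was above both in 491 (41.9%), between in 383 (32.7%) and below both in 298 (25.4%). In these counts *AOX1*, the copper transporter, all 11 ATP synthase subunits that passed and ribosomal protein S10 were below both, and *IME2*, *FLO11* and the GLEYA adhesin gene were above both. *AGP2*, *RME1* and the cysteine protease-like gene, which were high in *GS115*-YPAH5x alone, had mean *GS115*-YPA levels below both groups. Their *GS115*-YPA libraries overlapped those of *X33*-YPA, so that order is not resolved. The *GS115*-YPA libraries overlapped neither group in 461 of the 561, 136 of the 342 and 113 of the 172 higher genes. For the lower genes this held in 392 of the 491, 188 of the 383 and 217 of the 298. These are counts with no test, and 3 groups of 2 libraries set each of them.

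**Figure D5:**
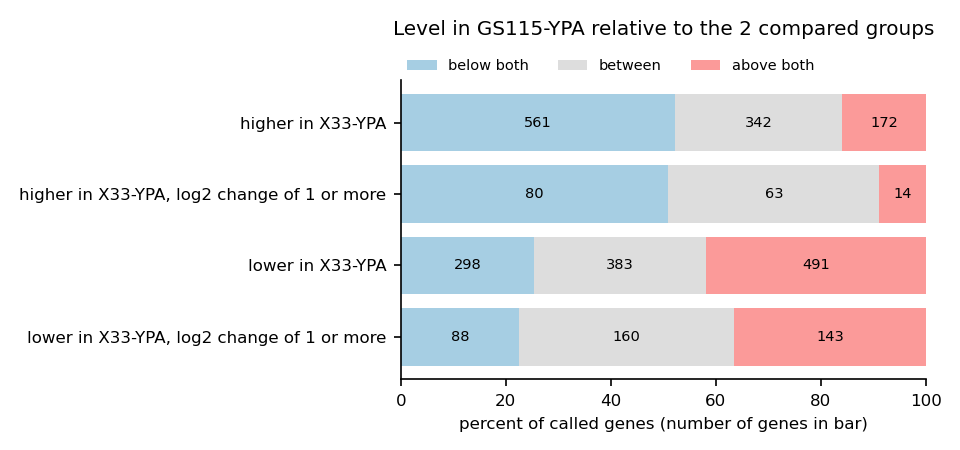
Bars give the percent of the genes higher or lower in *X33*-YPA than in *GS115*-YPAH5x whose mean log2 CPM in *GS115*-YPA lay below both groups, between them or above both, with the number of genes in each part, for all genes that passed and for those with a log2 fold change of at least 1. Of the 391 lower genes with such a change, 143 were above both, 160 between and 88 below both.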

How the data were processed

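RNA-seq of 6 libraries in 3 groups of 2 was used, grouped by their labels, which give no batch, date or pairing. The authors deposited a table of unnormalized counts, with a column for each library. Of tools, the submitters' processing notes list featureCounts 1.6.4, Bowtie2, fastp 0.19.6, bcl2fastq 2.19.0.316 and DESeq2. The Bowtie2 version, genome build and strand setting were not given in the sources used here.

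edgeR 4.0.16 (R 4.3.3) was run on these counts: filterByExpr left 5426 of 5427 genes, TMM set the scaling, and 1 quasi-likelihood fit held the 6 libraries, with Benjamini-Hochberg adjustment over all genes tested. SE came from the F value, and intervals from the fit's 3 residual and 6.68 prior degrees of freedom. The common biological coefficient of variation was 0.132. With 32194047 to 43447246 reads per library, duplicates differed by more than counting error over the table as a whole. A permutation of 2 libraries against 2 cannot reach p = 0.05, so none is given.

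The 32 gene lists (964 genes) were built from symbols and descriptions in the table, with hits of another function or of conflicting annotation dropped by hand, and symbols are printed only as these give them, apart from *AOX1* and *AOX2*, which abbreviate alcohol oxidase 1 and 2, and textbook abbreviations of the described proteins. Genes named are the 12 highest and 12 lowest among called genes with libraries that do not overlap, called genes of histidine biosynthesis, methanol use and amino acid permeases, *HIS4*, and of every other list the 3 with smallest adjusted p and the most significant in each direction. Other list members were added after their values were seen. Members, lists and comparison were chosen with earlier results of these data known. Alternatives were DESeq2 1.42.0, limma-voom 3.58.1, other scalings, filters, samples and thresholds, and each library left out.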

Additional observations from a re-analysis of the deposited data

How the results depend on the processing

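No paired analysis was possible because the labels give each library a letter and no number or label that ties libraries of different groups. The counts of 1075 higher and 1172 lower genes stayed within a factor of 1.5 with DESeq2 (1076 and 1229), RLE scaling, both other filters on low counts, robust dispersion, limma-voom and the fit of the 4 libraries alone (1363 and 1403), and with upper quartile scaling (1482 and 937, or 61.3% of calls higher against 47.8%). With library totals they were 2040 and 671, or 75.2% higher. Leaving out single libraries gave 323 to 1394 higher and 611 to 1397 lower genes, and thresholds of 1 and 2 on the log2 fold change left 157 and 391, then 2 and 40. Genes of any list, 247 higher and 177 lower as reported, were 419 and 88 with library totals, and 81 to 303 higher and 79 to 220 lower with single libraries left out. With thresholds of 1 and 2, the *GS115*-YPA level was below both groups, between and above both in 80, 63 and 14, then 1, 1 and 0 of the higher genes, and in 88, 160 and 143, then 9, 22 and 9 of the lower genes.

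Of 144 genes given by the naming rule that passed, 0 reversed under the 15 other fits, 96 passed under all that tested them and 48 lost the call in at least 1, with adjusted p up to 0.35. All 70 genes that the naming rule gave with a log2 fold change of 1 or more in size passed throughout, and the 48 had changes of 0.38 to 0.96. Of all 95 called list members with such a change, 4 lost the call without single libraries, namely BQ9382_C1-3590, BQ9382_C4-0400, BQ9382_C2-4210 and BQ9382_C3-1370 (adjusted p up to 0.214). *HIS4*, which did not pass, ranged from -0.059 to 0.179 with single libraries left out, below 0 without *X33*-YPA library 2 or *GS115*-YPAH5x library 2 (-0.034). A fit that leaves out a library has fewer samples, and why the scalings differ was not tested. With the genes that list words matched and that were dropped by hand kept, an alternative added after the data were seen, genes of any list were 310 higher and 228 lower, chaperones 14 higher and 29 lower of 79 (median -0.14 in place of -0.43), adhesins 1 and 8 of 15 (median -0.56), aromatic synthesis 8 and 3 of 22, ATP synthase 13 and 1 of 17 and cytosolic ribosomal proteins 72 and 2 of 90. Core histones were then 5 and 1 of 13 (median 0.18 in place of 0.47). Branched-chain synthesis, with 8 genes dropped, was 3 and 4 of 16. Nitrogen source breakdown, with 24 dropped, was 7 and 11 of 40 (median -0.09 in place of -0.24). Mating and sporulation, with 35 dropped, was 14 and 17 of 82 (median -0.04 in place of -0.15). Respiratory complexes II to IV, with 40 genes dropped, were 20 and 9 of 61 (median 0.29 in place of 0.35).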

Other observations

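Some of the largest differences on the lower side fell in genes at the ends of the tag order of each chromosome. Among the first and last 10 locus tags of each chromosome, 80 genes in all, 23 were lower in *X33*-YPA than in *GS115*-YPAH5x and 11 were higher. Most of the 80 did not pass. Of the 5426 genes tested, 1172 were lower (21.6%) and 1075 were higher (19.8%). Of the 391 genes with a log2 fold change of -1 or below, 19 were among these 80, and of the 40 genes at -2 or below, 7 were. They include the adhesin genes BQ9382_C1-8280 (-5.71) and BQ9382_C3-6505 (-3.65), the second-last and the last tag of their chromosomes in the table, BQ9382_C1-0005 (-3.57), the first tag of its chromosome, BQ9382_C1-8275 (-2.79), BQ9382_C4-5305 (-2.95), BQ9382_C4-5330 (-2.19) and BQ9382_C1-0015 (-2.24). The count of 10 tags was chosen after these values were seen, and no test was run.

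Genes whose annotation holds words of transcription factors or zinc fingers were 12 higher (5.43%, against 19.8% of all genes) and 95 lower (43.0%, against 21.6%) of 221 tested, with a median log2 fold change of -0.37, beside 0.03 over all genes. With library totals 35 were higher and 63 lower (28.5%, against 12.4% of all genes), at a median of -0.11, and with upper quartile scaling 17 and 80. Without *GS115*-YPAH5x library 2 or *X33*-YPA library 2, 60 and 64 were lower. They include a C2H2 zinc finger gene annotated *NSF1* (BQ9382_C4-4450), measured at 79.7 and 78.01 CPM in the *X33*-YPA libraries against 551 and 375 CPM in *GS115*-YPAH5x (-2.55 ± 0.34, SE, adjusted p = 6.9e-04), and a *MIG* zinc finger gene (BQ9382_C1-6945), at 104 and 106 CPM in the *X33*-YPA libraries against 441 and 408 CPM in *GS115*-YPAH5x (-2.02 ± 0.33, adjusted p = 0.0016). A general co-repressor that acts with Tup1 in *S. cerevisiae* (BQ9382_C1-2285) is not among the 221. It was at 118 and 152 CPM in the *X33*-YPA libraries against 614 and 723 CPM in *GS115*-YPAH5x (-2.30 ± 0.28, adjusted p = 4.9e-04). The group of 221 genes was also formed after values were seen. Of 173 genes that are not protein coding, 40 were higher and 36 were lower, against 1075 and 1172 of the 5426 genes tested.

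Further genes among the 40 with a log2 fold change of -2 or below have a known role. *NPR2* (BQ9382_C4-4490), annotated as nitrogen permease regulator 2, a subunit of the SEA complex that restrains TORC1 in *S. cerevisiae*, was measured at 10.4 and 8.74 CPM in the *X33*-YPA libraries against 37.8 and 44.9 CPM in *GS115*-YPAH5x (-2.11 ± 0.18, adjusted p = 9.1e-05). *RAD52* (BQ9382_C2-6200), of DNA repair by recombination, was at 1.46 and 0.729 CPM in the *X33*-YPA libraries against 4.63 and 5.23 CPM in *GS115*-YPAH5x (-2.19 ± 0.31, adjusted p = 8.8e-04). A polyamine transporter gene (BQ9382_C1-4535) was at 152 and 118 CPM in the *X33*-YPA libraries against 730.3 and 641 CPM in *GS115*-YPAH5x (-2.35 ± 0.19, adjusted p = 7.7e-05), and the receptor of a-factor pheromone (BQ9382_C3-1750) at 0.755 and 0.592 CPM in the *X33*-YPA libraries against 2.86 and 2.602 CPM in *GS115*-YPAH5x (-2.03 ± 0.29, adjusted p = 1.0e-03). The groups did not overlap in any of these, which was common over all genes, and each was named after its values were seen.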
